A study of Homo sapiens with 4 samples.

Results

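The OAS genes and the cytosolic RNA sensors are antiviral genes of the interferon response, and 8 of them were followed here across 4 arrays of human macrophages: OAS1, OAS2, OAS3 and OASL, the RIG-I-like receptors RIGI, IFIH1 and DHX58, and the adaptor MAVS. They were chosen by name, as every probe that the platform annotation gives to 1 of these genes, and made up 17 probes of 8 genes among 20045 genes in all. The cells were macrophages of THP-1, an established line from an acute monocytic leukemia that grows as monocyte-like cells. M1 macrophages were made from M0 macrophages with interferon-gamma and lipopolysaccharide (LPS), M2a macrophages with interleukin-4 (IL-4) and M2c macrophages with interleukin-10 (IL-10), and M0 macrophages are the unpolarised cells. How long and at what dose each cytokine was given, and how the THP-1 monocytes were first differentiated, is not stated in the labels. Each group had 1 Illumina array of total RNA from this 1 cell line, so that no difference has a replicate check, no test was run, and array, culture and group cannot be told apart.

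Intensities are given after background correction and quantile normalization, on a linear scale that includes an added offset of 16, and differences are on the log2 scale. A probe was called detected where its detection p-value, the share of negative-control beads that read as high, was below 0.01. A gene is said to have risen or fallen where its brightest probe differed by at least 2-fold between 2 arrays (1.0 on the log2 scale) and was detected on at least 1 of them. The arrays detected 27.4% (M1), 30.2% (M2a), 28.9% (M2c) and 31.4% (M0) of 47228 probes. All 11 analysed monocyte and macrophage markers, CD14 and CSF1R among them, were detected on every array, while 0 of 5 epithelial and 0 of 4 fibroblast markers were detected on any. CD3D, CD3E and CD3G, which define T cells, and MS4A1 and PAX5, which define B cells, were not detected on any array. Of the other lymphoid and plasmacytoid dendritic cell markers, CD2, CD4, CD79A, CD79B, IL3RA and TCF4 were detected on 1 or more arrays, and their part in the results was not tested. Intensities of different probes cannot be set against each other, so levels are compared between arrays within a probe. In such RNA of whole cultures, fewer cells with a transcript and less of it per cell cannot be told apart.

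The OAS enzymes bind double-stranded RNA and make short 2'-5'-linked oligoadenylates, the second messenger that switches on the ribonuclease RNase L, which then cuts viral and cellular RNA. OASL carries the OAS fold with ubiquitin-like repeats, lacks the synthetase activity and binds RIG-I. RIG-I (RIGI) recognises short double-stranded RNA with a 5' triphosphate, MDA5 (IFIH1) recognises long double-stranded RNA, and LGP2 (DHX58), which lacks the signalling domains, modulates both. RIG-I and MDA5 act on MAVS, an adaptor on the mitochondrial outer membrane, from which kinases activate interferon genes. In macrophages most of these genes are themselves induced by interferons through factors that bind the interferon-stimulated response element (ISRE).

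Promoter sequence was at hand for 5 of the 8 genes (OAS1, OAS3, RIGI, IFIH1 and MAVS), in a RefSeq table for the build GRCh38.p14. For each of these 5 genes, the 250 bases before its start are shown 5' to 3' on the gene's own strand. All 5 genes were higher on M1 than on M0, and MAVS alone among them was not lower on M2a. Whether the sequence bears on these differences was not tested. Capitals mark matches on either strand to AANNGAAA, the core that interferon regulatory factors (IRFs) bind, or to the core of the ISRE, which is GAAA, any 2 bases and GAAA again, and which always contains an IRF core match.
OAS1: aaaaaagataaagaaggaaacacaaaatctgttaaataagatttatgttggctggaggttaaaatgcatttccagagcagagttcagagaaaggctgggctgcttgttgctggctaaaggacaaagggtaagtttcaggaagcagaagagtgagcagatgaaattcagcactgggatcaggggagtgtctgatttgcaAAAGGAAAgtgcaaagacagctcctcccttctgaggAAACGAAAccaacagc
OAS3: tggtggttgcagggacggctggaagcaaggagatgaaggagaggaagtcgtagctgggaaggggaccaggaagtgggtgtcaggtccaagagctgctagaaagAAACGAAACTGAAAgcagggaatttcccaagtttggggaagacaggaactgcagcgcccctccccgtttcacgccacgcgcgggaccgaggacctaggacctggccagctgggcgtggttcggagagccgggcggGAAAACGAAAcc
RIGI: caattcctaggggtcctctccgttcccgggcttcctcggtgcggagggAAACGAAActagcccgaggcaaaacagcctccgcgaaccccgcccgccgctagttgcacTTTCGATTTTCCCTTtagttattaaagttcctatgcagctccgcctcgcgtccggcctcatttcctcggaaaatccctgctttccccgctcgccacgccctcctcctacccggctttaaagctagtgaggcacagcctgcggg
IFIH1: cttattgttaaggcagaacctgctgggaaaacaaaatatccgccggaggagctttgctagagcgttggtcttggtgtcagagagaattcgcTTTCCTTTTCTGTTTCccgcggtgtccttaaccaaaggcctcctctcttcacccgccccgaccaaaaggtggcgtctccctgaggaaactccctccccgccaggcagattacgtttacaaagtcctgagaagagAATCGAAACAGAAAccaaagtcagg
MAVS: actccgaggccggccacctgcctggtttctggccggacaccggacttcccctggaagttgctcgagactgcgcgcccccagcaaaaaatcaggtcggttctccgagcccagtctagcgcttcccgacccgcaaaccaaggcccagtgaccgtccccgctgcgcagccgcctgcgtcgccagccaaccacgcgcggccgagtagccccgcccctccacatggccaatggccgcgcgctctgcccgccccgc
The windows lie at chr12:112906712-112906961 on the plus strand for OAS1, chr12:112938224-112938473 on the plus strand for OAS3, chr9:32526197-32526446 on the minus strand for RIGI, chr2:162318685-162318934 on the minus strand for IFIH1 and chr20:3846584-3846833 on the plus strand for MAVS. The IRF core was present in 4 of the 5 windows, against 20.3% of 35116 promoter windows of the same length, and the ISRE core in 2 of 5, against 3.02%. IFIH1 held 4 IRF core matches and 3 of the ISRE, the nearest ISRE match ending 12 bases before the start. OAS3 held 3 IRF core matches and 2 of the ISRE, GAAACTGAAA at 143 to 134 and GAAAACGAAA at 12 to 3 bases before the start. OAS1 held 2 IRF core matches, AAACGAAA at 16 to 9 bases and AAAGGAAA at 52 to 45 bases before the start, and 0 of the ISRE. RIGI held 3 IRF core matches, the first of them again AAACGAAA, at 202 to 195 bases before the start, and 0 of the ISRE. In the OAS1 and RIGI windows the letter before AAACGAAA is g, so GAAA recurs after 1 base. The search for the ISRE core, fixed at 2 bases, did not cover that spacing. The MAVS window held 0 matches to either core. A core that binds STAT dimers, TTCNNNGAA, was found in 1 of 5 windows, that of OAS1, against 6.57% of all windows. Letters that match are a description and do not show that a factor binds there.

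Among the OAS genes, OASL had the widest range. Its brighter probe, ILMN_1674811, read 6353 on the M1 array, 154.6 on the M2a array, 257.3 on the M2c array and 333.3 on the M0 array. The M1 array stood far above the other 3, among which M2a was lowest. OASL rose 19.1-fold on M1 against M0 (4.25 on the log2 scale), the rank of 87 from the top among 9986 genes tested. Its dimmer probe, ILMN_1681721, was detected on the M1 array alone, at 908.0, and was at least 23.6-fold higher there than on M0. On M2a the brighter probe was 2.16-fold lower than on M0 (-1.11), but -0.80 in the authors' normalized intensities, -0.96 with an offset of 50 and -0.53 on the mean of its probes, all short of 2-fold.

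OAS1, the smallest of the synthetases, was read by 4 probes that moved alike. ILMN_1675640, the brightest, read 5712 on M1, 654.1 on M2a, 802.1 on M2c and 901.5 on M0, so that M1 was high and the other 3 arrays were similar. The rise on M1 was 6.34-fold against M0 (2.66), and the 4 probes ranged from 2.49 to 2.95 on the log2 scale. On M2a the 4 probes lay between -0.63 and -0.15 and on M2c between -0.45 and -0.15, below M0 in every case and past 2-fold in none. The annotation assigns these probes to 3 different OAS1 transcripts, but whether each is specific to its transcript was not tested.

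OAS2 and OAS3 had smaller differences on M1. OAS2, a synthetase with a repeated OAS unit, read 8232 on M1, 2140 on M2a, 4453 on M2c and 4823 on M0 for its brightest probe, ILMN_1674063. The M2a array was lowest, M2c and M0 were similar, and M1 was highest. This probe was 0.77 higher on M1 than on M0, under 2-fold, whereas the other 3 probes of OAS2 gave 0.93, 1.44 and 2.33, so that 2 of 4 passed 2-fold. On the mean of its detected probes the M1 difference was 1.37, and 1.41 after scaling arrays to a common median of the probes detected on all arrays, both past 2-fold. OAS2 fell 2.25-fold on M2a against M0 (-1.17), and its 3 probes detected on M2a ranged from -1.18 to -0.94 there. Its dimmest probe was not detected on M2a and was at least 1.24-fold lower than on M0. After that common-median scaling the fall was -0.93.

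OAS3, the largest synthetase, which prefers long double-stranded RNA, read 8407 on M1, 1876 on M2a, 3001 on M2c and 3515 on M0 (ILMN_1745397). M1 was above the rest and M2a below them. It rose 2.39-fold on M1 (1.26), and its other probe by 2.02 on the log2 scale. The M2a differences were -0.91 and -0.45 for the 2 probes, which did not pass. On M2c they were -0.23 and -0.72. In each of the 4 OAS genes, all with more than 1 detected probe, the probe that was dimmest on M0 gave the largest M1 difference (4 of 4). The M0 value that picked the probe also enters the difference, so a low reading on M0 would favour this outcome. The size of a rise depended on the probe that stood for the gene.

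**Figure D1:**
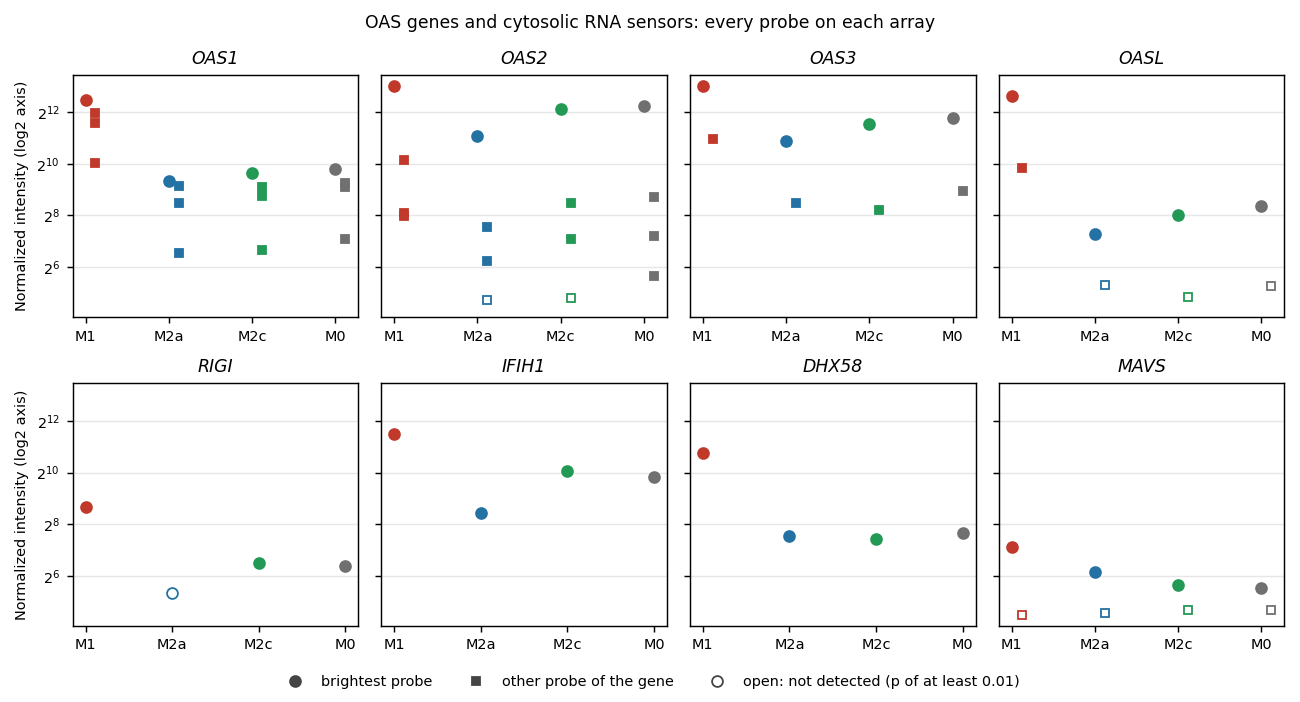
Normalized intensity (log2 axis) of all 17 probes of the OAS genes and RNA sensors on the M1, M2a, M2c and M0 arrays. Circles are the brightest probe of a gene, squares its other probes, and open symbols were not detected. The brightest probe was highest on M1 for 8 of 8 genes and lowest on M2a for 6 of them. How many of all genes were highest on M1 or lowest on M2a was not counted.

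The 3 receptors were read by 1 probe each. IFIH1 (ILMN_1781373) read 2913 on M1, 345.4 on M2a, 1072 on M2c and 909.6 on M0. M1 was highest, M2a lay well below M0, and M2c slightly above it. IFIH1 rose 3.20-fold on M1 (1.68) and fell 2.63-fold on M2a (-1.40), the largest M2a fall of the 8 genes and 138 from the bottom of 9860 genes. It passed 2-fold in both directions under every alternative tried, with ranges of 1.43 to 2.13 on M1 and -1.43 to -1.21 on M2a.

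RIGI (ILMN_1797001) read 403.3 on M1, 40.39 on M2a, 89.64 on M2c and 83.48 on M0, and was not detected on the M2a array. M2c and M0 were alike, M1 was above them and M2a at the detection limit. It rose 4.83-fold on M1 against M0 (2.27) and was at least 2.05-fold lower on M2a. The M2a fall did not reach 2-fold under other treatments of the background: it was -0.42 in the authors' normalized intensities, -0.42 with no background correction and -0.66 with an offset of 50.

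DHX58 (ILMN_1678422) read 1721 on M1, 184.9 on M2a, 170.6 on M2c and 201.4 on M0. Here the 3 arrays other than M1 lay close together. DHX58 rose 8.55-fold on M1 (3.09), and its M2a difference was -0.12, against -1.40 for IFIH1.

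MAVS, the shared adaptor, was read by 2 probes, of which 1 was detected on every array and the other on none. ILMN_2131493 read 137.3 on M1, 70.36 on M2a, 50.50 on M2c and 46.67 on M0, all close to the background. M1 was highest, and M2c and M0 were alike. The M1 difference of 1.56 passed 2-fold, but it was 0.75 in the authors' normalized intensities, 0.74 with no background correction and 0.93 after scaling to the median of all probes. On M2a MAVS was 0.59 above M0, the one member with a positive difference there.

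**Figure D2:**
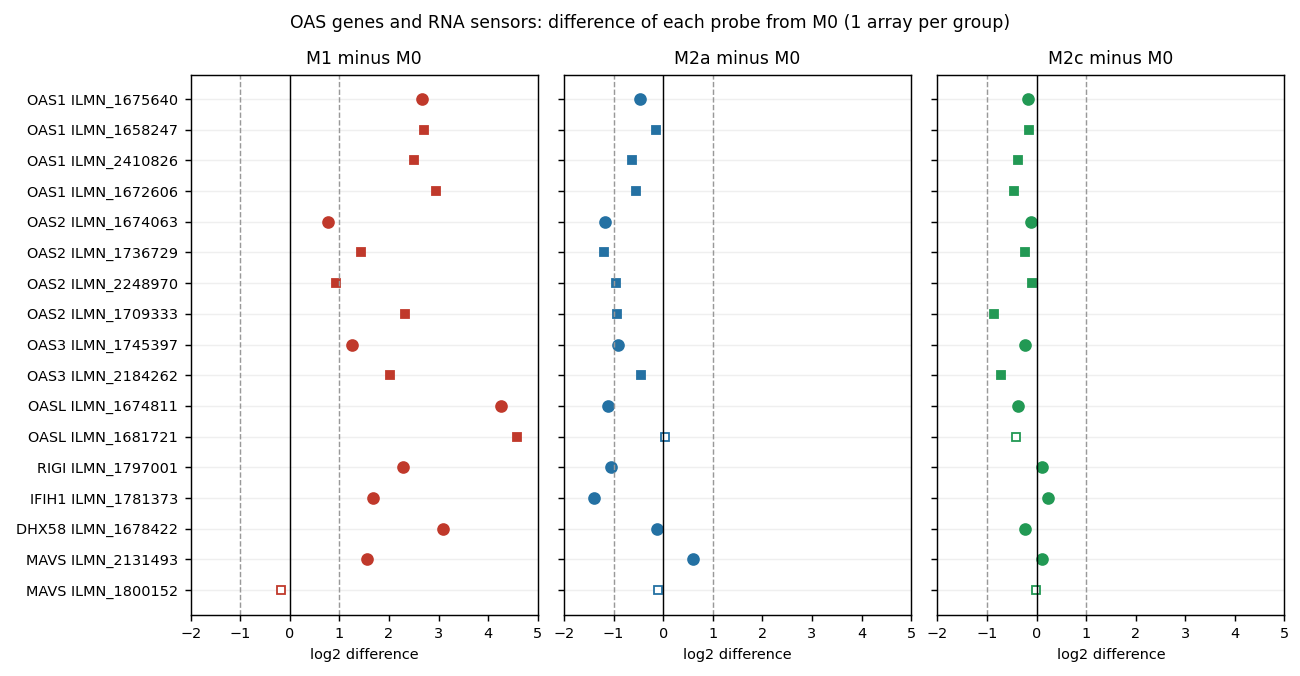
Difference from M0 on the log2 scale for each of the 17 probes, for M1, M2a and M2c. Circles are the brightest probe of each gene, squares other probes, open symbols were detected on neither array, and dashed lines mark 2-fold. On M1 14 of 16 detected probes passed 2-fold, 5 of 15 fell past it on M2a and 0 of 15 passed on M2c. Probes of the same gene are not separate measurements, and the share of all probes past 2-fold was not counted.

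Over the 8 genes, interferon-gamma with LPS accompanied a rise of 7 (OAS1, OAS3, OASL, RIGI, IFIH1, DHX58 and MAVS) and a fall of 0, against 15.0% of 9986 genes that rose and 19.0% that fell. OAS2 was the exception, 0.77 higher. The median of the 8 differences was 1.98, against -0.18 for all genes tested. Scaling moved that centre: the median of all genes tested in M1 minus M0 was 0.08 with a common median of the probes detected on all arrays and -0.65 with a common median of all probes. Relative to the median of all genes, the 8 differences ran from 0.96 (OAS2) to 4.44 (OASL). The number that rose was 6 to 8 over the 8 alternatives tried.

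On M2a 4 of the 8 fell (OAS2, OASL, RIGI and IFIH1) and 0 rose, against 5.04% of 9860 genes that fell and 4.09% that rose, with a median of -0.98 against -0.01 for all genes. OAS3 at -0.91 was just under 2-fold, and OAS1, DHX58 and MAVS were further from it. The falls were of about 2-fold, and 2 of the 4, OASL and RIGI, did not reach it in the authors' normalized intensities, without background correction or with an offset of 50, where 2 genes (OAS2 and IFIH1) fell. M2a and M1 were both set against the same M0 array, so an error on that array would enter both comparisons.

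On M2c 0 of the 8 rose and 0 fell, against 0.677% of 9604 genes that rose and 0.448% that fell. The differences ran from -0.37 (OASL) to 0.24 (IFIH1), with a median of -0.14 against -0.01 for all genes. All 4 OAS genes were below M0, between -0.37 and -0.12, as were all their detected probes. The receptor DHX58 was also below it, at -0.24, while RIGI, IFIH1 and MAVS were above it, between 0.10 and 0.24. With no replicate, differences of this size cannot be told from variation between arrays.

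**Figure D3:**
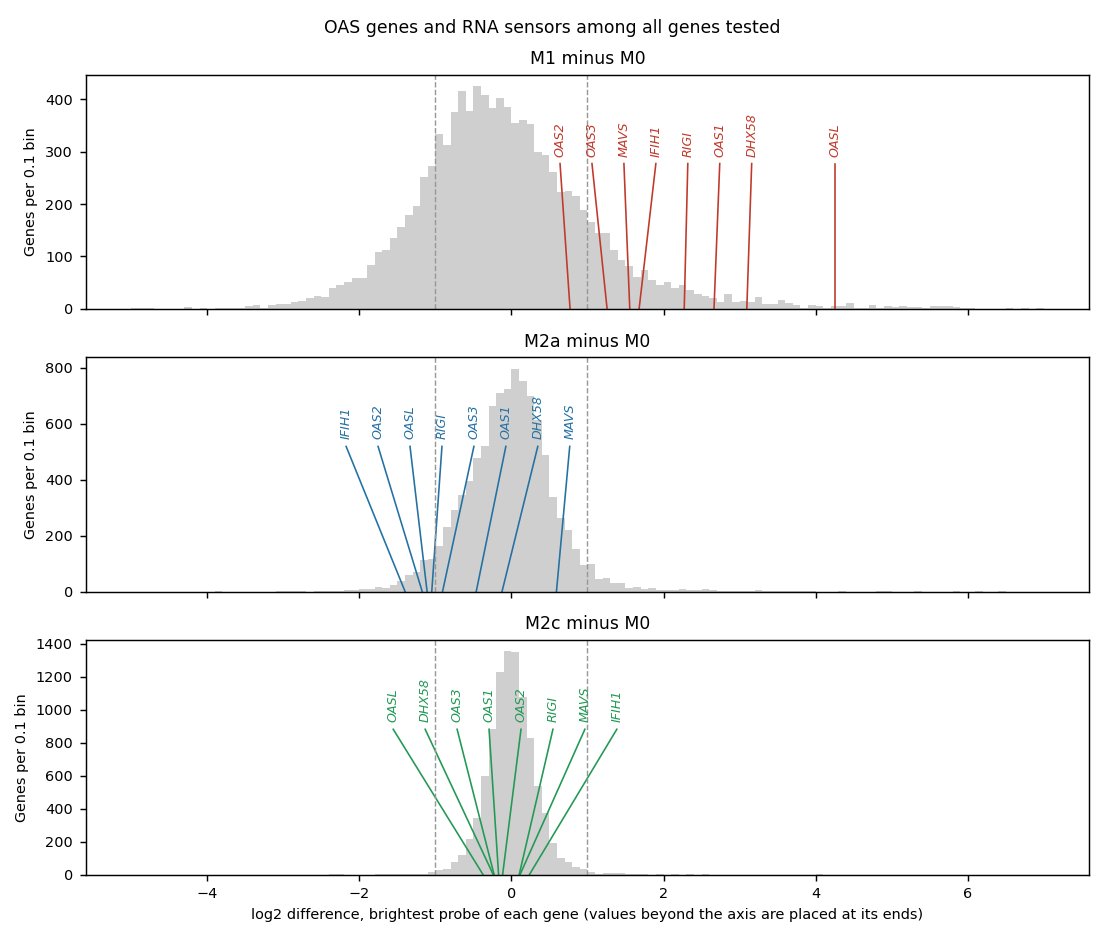
Histograms of the log2 difference from M0 of all genes tested, for M1 (9986 genes), M2a (9860) and M2c (9604), with the 8 genes marked by lines and dashed lines at 2-fold. The 8 genes lie on the right of the M1 histogram, mostly on the left of the M2a histogram and within the bulk of the M2c histogram.

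Between polarised states the median difference of the 8 genes was 3.10 for M1 minus M2a and 1.83 for M1 minus M2c. Of the 8 genes 7 were higher and 0 lower on M1 than on M2a, against 15.7% of 9791 genes that were higher and 18.0% that were lower. OASL was 41.1-fold higher (5.36), RIGI at least 9.88-fold, DHX58 9.31-fold, OAS1 8.73-fold, IFIH1 8.43-fold, OAS3 4.48-fold and OAS2 3.85-fold, and MAVS did not pass at 0.96. The bound for RIGI holds only under the processing used here, where its difference was 3.32. It was 1.96 in the authors' normalized intensities and 1.94 with no background correction. For DHX58 the ratio was close to its 8.55-fold against M0, while for IFIH1 it was well above its 3.20-fold. Against M2c 7 of the 8 were higher on M1 and 0 lower, against 16.3% of 9676 genes that were higher and 21.4% that were lower, with OAS2 at 0.89. M2a was lower than M2c for 3 of the 8 (OAS2 at -1.06, RIGI at least 2.20-fold and IFIH1 at -1.63), against 6.98% of 9607 genes that were lower, and higher for 0, against 4.81%, and IFIH1 alone passed under all alternatives. RIGI was at -0.48 for M2a minus M2c in the authors' normalized intensities.

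By the brightest probe, the order of the arrays was M1, M0, M2c, M2a from high to low for all 4 OAS genes. RIGI and IFIH1 had the order M1, M2c, M0, M2a, DHX58 had M1, M0, M2a, M2c, and MAVS had M1, M2a, M2c, M0. OAS3's other probe read 358.8 on M2a and 299.1 on M2c, the reverse order. For DHX58 M2a and M2c lay 0.12 apart, and -0.07 after scaling to the median of all probes. By the brightest probe M2c and M0 lay at most 0.37 apart, so the order of these 2 arrays within a gene is not established. For OAS1 M2a and M2c lay 0.29 apart, and its probe ILMN_1658247 gave 0.008 for M2a minus M2c. OASL was at -0.73 for M2a minus M2c, but at -0.13 on the mean of its detected probes. The order of M2a and M2c is thus not established for DHX58, OAS1, OAS3 or OASL. With 1 array per group, the order in the other genes has no replicate check either.

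The genes around these 8 were taken from lists chosen with earlier results of these data known. The ligands came first: of 21 interferon genes 2 were detected, both on the M1 array alone. IFNB1, the interferon that MAVS signalling induces, read 232.1 on M1, 20.49 on M2a, 20.25 on M2c and 20.75 on M0 and was at least 6.03-fold higher on M1 than on M0. IFNL1, a type III interferon, was at least 2.12-fold higher. The number of these ligands that rose was 1 to 2 over the alternatives, so not every bound holds under all of them. None of the 13 interferon-alpha genes was detected on any array.

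Among 12 interferon receptor, JAK-STAT and feedback genes tested, 4 rose on M1 and 1 fell, against 15.0% of all genes that rose and 19.0% that fell (median 0.59, with 3 to 6 rises over the alternatives). IRF1, a factor that binds the IRF core, rose by 3.99 on the log2 scale, USP18, which curbs interferon receptor signalling, by 3.28, and SOCS1, a feedback inhibitor of JAK kinases, was at least 10.2-fold higher, while the receptor chain IFNGR1 fell by 1.37. IRF9, the DNA-binding part of the ISGF3 complex, was 0.90 higher and did not pass, nor did it on M2a at -0.33. On M2a SOCS1 alone passed, at least 6.26-fold higher than on M0, and 0 of the 12 fell (median -0.28). Of all genes 4.09% rose and 5.04% fell there. IRF9 is named outside the rule for named genes.

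Below MAVS, 9 of 19 genes tested rose on M1 and 1 fell, against 15.0% and 19.0% of all genes (median 0.85, with 7 to 11 rises over the alternatives). IRF7, the factor that amplifies interferon genes, read 9001 on M1, 372.6 on M2a, 776.5 on M2c and 990.6 on M0, a rise of 3.18 on M1 and a fall of 1.41 on M2a. IFIT3, which binds MAVS and TBK1, read 2717, 74.33, 434.2 and 321.7 on M1, M2a, M2c and M0, a rise of 3.08 and a fall of 2.11 (2.21 and -0.95 for the mean of its other probes). Both stood high on M1 and low on M2a. TRADD, an adaptor that MAVS recruits, rose by 2.19 on M1. On M2a 2 of 19 fell, IRF7 and IFIT3, against 5.04% of all genes, and TRAF5 alone passed upwards, at 1.25 as measured and at least 1.53-fold as a bound, since it was detected on M2a but not on M0.

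The co-factors and ubiquitin ligases that act on the receptors were near the share of all genes in their falls on M1. Of 17 tested 0 rose and 3 fell (median -0.46), against 15.0% of all genes that rose and 19.0% that fell: NLRX1, a mitochondrial inhibitor of MAVS, was at least 2.25-fold lower, and DHX15 and PRKRA, which binds RIG-I, stood at -1.03 each. The falls numbered 0 to 7 and the rises 0 to 1 over the alternatives. ZC3HAV1, an antiviral zinc finger protein named after its values were seen, was at -0.46 by its brightest probe but at 2.56 on M1 by the mean of its other 2 detected probes. On M2a the helicase DDX60, at -1.38, alone passed of 17, against 5.04% of all genes that fell. In the RNase L arm 4 genes were tested and 1 fell on M1, with 0 to 2 falls over the alternatives: ABCE1, known as an RNase L inhibitor and a ribosome recycling factor, fell by 1.38, and by 1.99 for its other probe. AKAP7, which can degrade 2'-5' oligoadenylates, was at 0.83, and at 1.04 for its other detected probe. PDE12, which also degrades them, was at -0.53 on M1 and -0.21 on M2a.

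The last list held other nucleic acid sensors and double-stranded RNA proteins, most of them outside the RIG-I-like receptor pathway. Of 20 tested on M2a 8 fell and 0 rose, against 5.04% of all genes that fell (median -0.56, with 5 to 8 falls over the alternatives). Of 21 tested on M1 6 rose and 2 fell, against 15.0% and 19.0% of all genes (median 0.26, with 5 to 9 rises and 1 to 6 falls over the alternatives). IFIT2, which binds RNA ends, fell by 2.37 on M2a and IFIT1 by 1.78 (-0.49 for its other probe). TLR7 was not detected on M2a and was at least 3.13-fold lower there than on M0. EIF2AK2, the double-stranded RNA-activated kinase PKR, read 3801 on M1, 893.1 on M2a, 2396 on M2c and 2331 on M0, a fall of 1.38 on M2a and a difference of 0.71 on M1 that did not pass. It was named after its values were seen. The rises on M1 included the DNA sensors AIM2 (4.78, and 1.93 for its other probe) and CGAS (2.44), whose M2a differences were -0.40 and 0.12. The 2 genes that fell on M1 were TLR7, at least 2.61-fold lower than on M0, and STING1, at -1.38. STING1 was named after its values were seen.

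**Figure D4:**
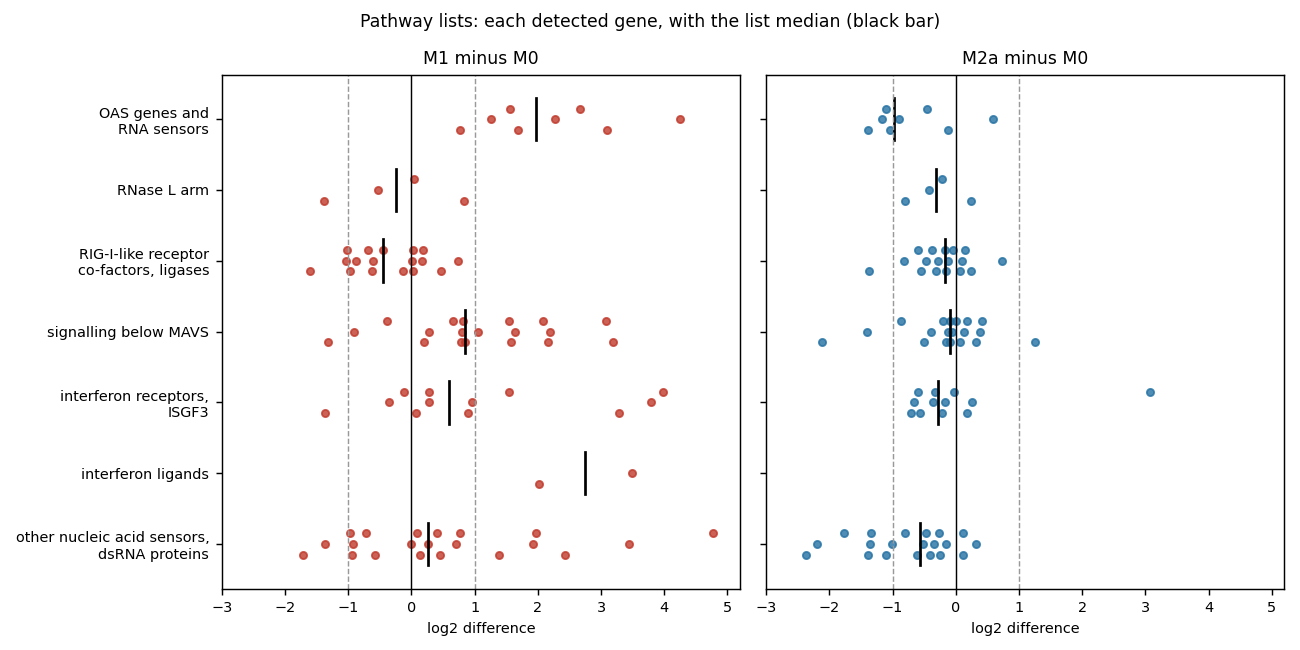
Log2 difference from M0 of each detected gene of the 6 pathway lists and of the 8 OAS genes and RNA sensors, for M1 and M2a, with black bars at the median and dashed lines at 2-fold. The medians of the OAS genes and sensors were 1.98 on M1 and -0.98 on M2a, and those of the co-factors and ligases were -0.46 and -0.17.

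The genes with the most similar pattern were taken by the distance between their 3 differences from M0 (log2 scale, 4 arrays, 7377 genes detected on all arrays). OAS2 lay closest to MX1, an antiviral GTPase, at a distance of 0.05 (MX1 at 0.74 on M1 and -1.13 on M2a), then to PPP1R12A and IFI44. IFIH1 lay closest to CASP1, the inflammasome protease, at 0.17 (1.76 and -1.25), then to HERC6 and VRK2. For OAS1 the nearest were SMIM3, RNF213 and SLC16A10 at 0.16 to 0.19, for OAS3 NPTX2, ROBO1 and NBN at 0.14 to 0.21, and for DHX58 GADD45B, FOSL2 and SERPINE2 at 0.12 to 0.22. OASL had no gene as close: SLC25A24, whose other detected probe went the other way (-1.43 on M1), NCF1 and NCF1C lay at 0.54 to 0.73, and NCF1 and NCF1C are near-identical paralogs whose readings are uncertain. MAVS lay closest to TMEM114, ANGEL1 and LRCH4, at 0.07 to 0.11, but LRCH4's other detected probe was at -0.33 on M1, against 1.45 for the probe that matched. RIGI was not detected on all arrays and has no such list. Among the 7 genes themselves OAS1 and DHX58 were the closest pair (0.55), followed by OAS2 and OAS3 (0.57), and OAS2 and OASL the furthest apart (3.49).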

How the data were processed

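Total RNA of 4 macrophage groups was measured on 1 Illumina array each. The authors deposited non-normalized and normalized intensity values with a detection p-value for 47228 probes, and the submitters' processing notes name GenomeStudio, without a version. The sorted values of the deposited normalized intensity columns lay within 0.437% of the mean sorted raw values, as quantile normalization gives, and the series' value table differed from them in 0 cells. Intensity columns were matched by name, and each detection p column by its place to the right of a named intensity column.

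From the non-normalized intensity, limma 3.58.1 (neqc, R 4.3.3) corrected the background by normexp, with negative controls derived from the detection p. It added an offset of 16, which pulls differences of dim probes towards 0, and quantile normalized the 4 arrays. Some dim probes still had larger differences than with no background correction. MAVS stood at 1.56 against 0.74 on M1 minus M0, and RIGI at -1.05 against -0.42 on M2a minus M0. Probes with 1 symbol in the platform annotation (30111) were named, with symbols updated through the RefSeq table of GRCh38.p14 for 30072 of them. 8 probes with several symbols and 17109 unnamed probes were left out. The brightest probe stood for each gene. Where 1 of 2 arrays did not detect it, "at least" gives the bright value against the higher of the dim value and the lowest detected value on that array. Such a bound belongs to this processing, and the ratio can be smaller under the alternatives.

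The 8 genes, lists and alternatives were chosen with earlier results of these data known. The alternatives were the authors' normalized intensities, no background correction, an offset of 50, a common median of all probes, normalization without the M1 array, a detection p of 0.05, no detection filter and the mean of detected probes. A common median of the probes detected on all arrays was added after the data were seen. The rule for named genes takes all 8 genes, the 3 largest changes of each list on M1 and on M2a, and the 3 nearest genes to each of the 8 that was detected on all arrays. Listed genes with no named probe were not analysed here. Known fold changes added to simulated data were used to check the steps.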

Additional observations from a re-analysis of the deposited data

How the results depend on the processing

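The number of the 8 genes past 2-fold stayed within 1.5 times its value in 48 of 51 recomputations over the 6 comparisons. The other 3 concerned M2a minus M0, where 4 genes passed but 2 in the authors' normalized intensities, 2 without any correction of the background and 2 at an offset of 50. The cause was not tested. Of the recomputed differences of single genes, 287 kept their side of 2-fold, 20 no longer reached it and 5 came to pass it, and 0 of those past 2-fold changed sign. Over all genes, 900 passed 2-fold in M2a minus M0, but 295 in the authors' normalized intensities, and 108 against 24 in M2c minus M0. In M1 minus M0, 44.0% of the genes past 2-fold were higher, against 20.1% with a common median of all probes and 61.3% with one of the probes detected on all arrays. In M2a minus M0 it was 44.8%, against 33.3% with a common median of all probes, 57.6% in the authors' normalized intensities and 57.5% without any correction of the background. In M2c minus M0 it was 60.2%, against 83.3% in the authors' normalized intensities. No paired analysis was possible because each group holds 1 array, and no replicate could be left out for the same reason. Signal close to the background limits the values of MAVS, RIGI and the dimmer OAS2 and OASL probes.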

Other observations

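OAS1, OAS3 and OAS2 lie next to each other on chromosome 12, in that order, in the RefSeq gene table. Their protein-coding neighbours on either side, RPH3A and DTX1, were not detected on any array. RIGI lies between ACO1, at -2.37 on M1 minus M0, and TOPORS, at -1.09, and DHX58 lies beside KAT2A, at -1.24. GCA, which follows IFIH1, was at 0.90 on M1 and -1.33 on M2a, beside 1.68 and -1.40 for IFIH1. P2RX7, which follows OASL, was at 4.39 on M1 beside 4.25 for OASL, but at 0.78 on M2a beside -1.11. These neighbours were looked up after the values of the 8 genes were seen.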
